A study of Mus musculus with 4 samples.

Results

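The genes described here lie on mouse chromosomes 1 and 5. They were taken from a 1-colour Agilent mouse array by the probe positions in the array annotation, which are on genome build mm8. A probe was kept where its intensity in the deposited table, on a scale with the array median near 1, was above 0.1 on both arrays of at least 1 group. This left 1251 genes on chromosome 1 and 1329 on chromosome 5, together 2580 of 21944 genes measured, and 18384 genes on the other 17 autosomes served for comparison. The chromosomes were chosen by the measured difference between the groups in these values and the genes by their intensity, so their overall differences are a description without a test.

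RNA came from OP9 cells, a mouse stromal line on which blood progenitors are cultured and which was derived from the calvaria of mice lacking macrophage colony-stimulating factor. Cells of both groups carried the retroviral vector LZRS-IRES-GFP. In the 2 Control samples it held no further gene, and in the 2 Wnt3A samples it also held the Wnt3A gene. Before labelling with Cy3 the cDNA went through a global PCR amplification, and each sample had 1 array. The comparison asks which genes of these cells differ when the vector carries Wnt3A, and with so few arrays every value has limited precision.

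Wnt3A is a secreted ligand that binds Frizzled receptors with an LRP co-receptor. This stabilises beta-catenin, which then acts with TCF/LEF proteins on DNA to switch on target genes, and in stromal cells the pathway is known to favour bone formation over fat formation. Genes of related function often lie side by side. Chromosome 1 holds pairs of fibrillar collagen genes and small leucine-rich proteoglycan genes, the interferon-inducible p200 family and many regulators of G protein signalling. Chromosome 5 holds the SIBLING genes of the bone and tooth matrix, the CXC chemokine and EGF ligand genes and the 2'-5' oligoadenylate synthetase genes.

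The promoters of 4 members show what lies upstream of the genes with the largest changes that passed the test on each chromosome. The first 3 belong to the named genes with the largest rises (Tnn and Dpt on chromosome 1, Ibsp on chromosome 5) and the last to the named gene with the largest fall (Abcb1a on chromosome 5). Each sequence is the 250 bases before the gene's start in RefSeq on GRCm38.p6, a later build than that of the probes, written 5' to 3' on the strand of the gene, with matches to the TCF/LEF core motif in capitals. Tnn lies at chr1:160153576-160153825 (minus strand), Dpt at chr1:164796413-164796662 (plus), Ibsp at chr5:104299037-104299286 (plus) and Abcb1a at chr5:8566841-8567090 (plus).
Tnn: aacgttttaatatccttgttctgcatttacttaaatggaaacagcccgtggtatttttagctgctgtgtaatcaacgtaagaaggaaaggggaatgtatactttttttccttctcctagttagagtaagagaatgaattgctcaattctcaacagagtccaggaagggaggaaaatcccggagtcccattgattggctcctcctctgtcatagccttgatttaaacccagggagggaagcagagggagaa
Dpt: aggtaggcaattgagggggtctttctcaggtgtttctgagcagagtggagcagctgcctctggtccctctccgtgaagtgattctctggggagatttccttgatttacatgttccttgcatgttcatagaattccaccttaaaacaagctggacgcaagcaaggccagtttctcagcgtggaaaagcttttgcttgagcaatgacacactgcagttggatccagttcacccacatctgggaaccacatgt
Ibsp: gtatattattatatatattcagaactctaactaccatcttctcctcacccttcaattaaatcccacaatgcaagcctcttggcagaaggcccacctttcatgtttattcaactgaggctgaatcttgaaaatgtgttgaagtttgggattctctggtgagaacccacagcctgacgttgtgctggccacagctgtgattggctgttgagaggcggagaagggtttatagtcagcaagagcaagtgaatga
Abcb1a: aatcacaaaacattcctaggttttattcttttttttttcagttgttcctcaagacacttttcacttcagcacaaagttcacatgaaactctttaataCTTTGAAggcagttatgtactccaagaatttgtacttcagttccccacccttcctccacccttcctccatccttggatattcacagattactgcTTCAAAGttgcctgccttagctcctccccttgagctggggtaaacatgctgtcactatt
The motif was searched on both strands with the letters CTTTGAA or with its variants, which were CTTTGAT, then CTTTGTA and lastly CTTTGTT. The promoter of Abcb1a held 2 matches, which begin 153 and 59 bases before the start, 1 on each strand, and those of Tnn, Dpt and Ibsp held none. A match was present in 14.8% of all 32851 RefSeq promoters in the table, in 13.1% of the promoters matched to chromosome 1 members (816 of 973 RefSeq-named genes matched) and in 10.01% of those matched to chromosome 5 members (880 of 1042). These shares describe letters in a window and not sites that are bound.

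Of 1623 genes with a probe on chromosome 1, 77.1% passed the filter on low intensity, and of 1641 on chromosome 5, 81.0% did, beside 80.0% of genes on the other autosomes. The members were above 0.1 on all 4 arrays in 1127 genes of chromosome 1 and 1215 of chromosome 5. On chromosome 1, 80 genes passed through the Wnt3A arrays alone and 44 through the Control arrays alone. On chromosome 5 the counts were 64 and 50. Entry through 1 group favours genes that differ, although the groups overlapped in 44 of these 124 genes on chromosome 1 and in 37 of 114 on chromosome 5. Just inside the threshold lay Ugt2a1, with intensities of 0.0845 and 0.0632 in Control and 0.160 and 0.101 in Wnt3A, and just outside it lay Cr2, with 0.0999 and 0.158 in Control and 0.129 and 0.0950 in Wnt3A. By gene name, RefSeq placed 2 of the chromosome 1 members and 3 of the chromosome 5 members on another chromosome.

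Some facts of the whole series bear on the values below. Of the 10 stromal markers, 8 were above 0.1 on all arrays, Lum was above it on none, and Nt5e was above it in Wnt3A alone. Their summed intensity was 546 and 789 in Control and 1225 and 1332 in Wnt3A, a difference carried by Col1a1 and Col1a2, while Vim read 235 and 308 in Control and 155 and 132 in Wnt3A. The median percentile of the list within an array was 69.3 and 69.9 in Control and 69.7 and 64.5 in Wnt3A. The summed intensity of 10 macrophage and myeloid markers was 10.6 to 14.1 over all 4 arrays. The 1 probe of Wnt3a itself read 0.0151 and 0.0134 in Control and 0.0112 and 0.123 in Wnt3A. Only 1 array exceeded 0.1, so the gene did not enter the fit. Whether the insert in the vector reaches the sequence read by this probe is not in the labels, so the probe does not check them. The scanner files deposited beside the table did not rank probes as their own columns do: each of the 4 table columns had its highest rank correlation with the scanner file of Control replicate 2 (Spearman's rho over probes of 0.830 to 0.850), and the scanner file of Control replicate 1 was faint, with 41.3% of probes well above background. All values below are from the table unless the scanner files are named.

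Genes of chromosome 1 were higher in Wnt3A than genes of the other autosomes, and so, by less, were those of chromosome 5. The median log2 difference, Wnt3A minus Control, was 0.18 on chromosome 1 and 0.10 on chromosome 5, beside -0.05 over the other autosomes. Relative to the other autosomes the medians were thus higher by 0.23 on chromosome 1 and 0.15 on chromosome 5, while the other 17 autosomes ranged from -0.06 (chromosome 17) to 0.07 (chromosome 19). These 2 chromosomes were the first and second highest of 19. They were chosen by this difference, so their ranks are description only. On chromosome 1, 63.2% of genes had a log2 difference above 0, on chromosome 5 56.0%, and on the other autosomes 46.2%, where the share over all genes was 47.9%.

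Each array was then read on its own, as the median deviation of a chromosome's genes from their means over the 4 arrays, less the same over the other autosomes. Because the deviations are taken from those means, high values on some arrays are balanced by low values on others. Chromosome 1 stood at -0.132 and -0.115 in Control and at 0.132 and 0.126 in Wnt3A. Chromosome 5 stood at -0.0733 and -0.0594 in Control and at 0.0631 and 0.0613 in Wnt3A. On both chromosomes the groups did not overlap, and arrays of 1 group lay close together: the SD within groups was 0.00917 for chromosome 1 and 0.00704 for chromosome 5 (n = 2 per group). The groups also did not overlap on many of the other autosomes, such as 4, 15 and 19, with smaller differences. The SD within groups was smaller still on chromosomes 2, 4 and 15, at 0.000539, 0.00425 and 0.00489. What set chromosomes 1 and 5 apart was the size of the difference, by which they were chosen. Taken as single pairs of a Wnt3A and a Control array, the shift ran from 0.221 to 0.254 on chromosome 1 and from 0.127 to 0.153 on chromosome 5. Chromosome 2, with 1749 genes, showed the opposite order with a smaller size, at 0.0257 and 0.0262 in Control and -0.0262 and -0.0272 in Wnt3A. With 2 arrays against 2, the smallest two-sided p that an exact permutation test allows is 0.333, so no p is given for a chromosome.

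**Figure D1:**
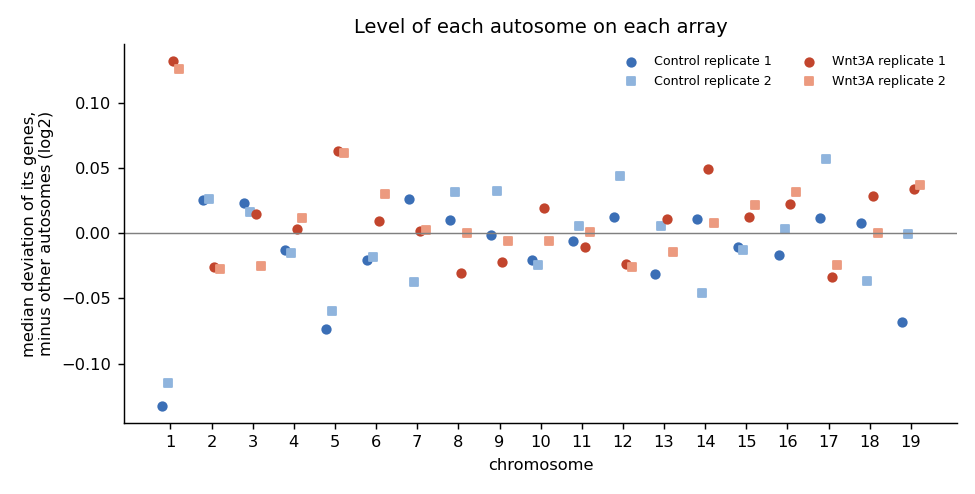
Median log2 deviation of the genes of each autosome from their means over the 4 arrays, less the same median over the 17 autosomes other than 1 and 5 (vertical axis), for each autosome (horizontal axis); each point is 1 array. On chromosome 1 the Control arrays lie at -0.132 and -0.115 and the Wnt3A arrays at 0.132 and 0.126, farther apart than on any other autosome.

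The difference did not lie in the genes with the largest changes alone. On chromosome 1 the lower quartile, median and upper quartile of the log2 difference were -0.20, 0.18 and 0.76, against -0.45, -0.05 and 0.34 on the other autosomes, so the gap was 0.25, 0.23 and 0.42. On chromosome 5 the quartiles were -0.31, 0.10 and 0.58, and the gap was 0.14, 0.15 and 0.24. The gap was wider at the upper end: at the 90th percentile it was 0.66 on chromosome 1 and 0.30 on chromosome 5. A log2 difference above 1 was found in 244 genes of chromosome 1 (19.5%) and 182 of chromosome 5 (13.7%), beside 8.67% on the other autosomes and 9.68% over all genes. A difference below -1 was found in 7.11%, 7.98% and 10.1% of genes on chromosome 1, chromosome 5 and the other autosomes, beside 9.76% over all genes. Among genes above 0.1 on all 4 arrays, to which neither group alone gave entry, the medians were 0.17 and 0.10 beside -0.05 on the other autosomes.

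**Figure D2:**
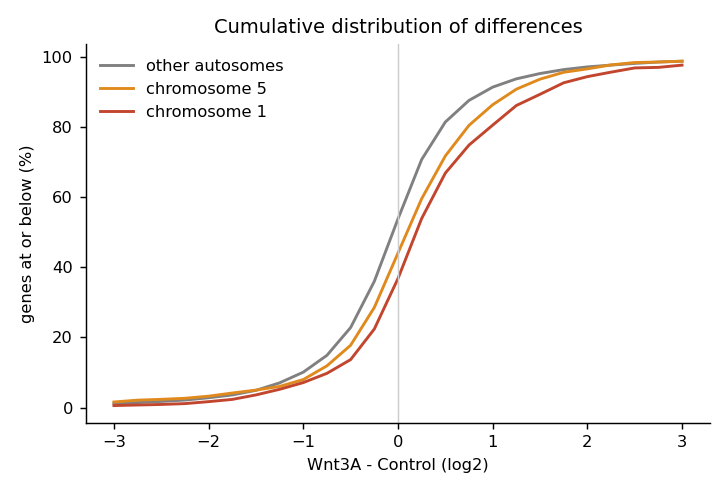
Share of genes (vertical axis, percent) with a log2 difference, Wnt3A minus Control, at or below the value on the horizontal axis, for chromosome 1, chromosome 5 and the other autosomes. The curve of chromosome 1 lies to the right of the others, with a median of 0.18 beside 0.10 and -0.05.

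Both arrays of 1 group were above both arrays of the other in 45.4% of all genes, with Wnt3A higher in 20.9% and lower in 24.4%. On chromosome 1, 434 genes had both Wnt3A arrays above both Control arrays (34.7%) and 197 had them below (15.7%). On chromosome 5 the counts were 365 (27.5%) and 275 (20.7%). On the other autosomes the shares were 19.5% and 25.3%, so there more genes were lower than higher, and on the 2 chromosomes the order was turned. These counts come from the contrast that chose the chromosomes and are given as description.

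Along chromosome 1 the higher level was found in every stretch that could be read. Cut into bins of 10 Mb, 19 bins held at least 20 genes, and the median of each of the 19 was above that of the other autosomes, by 0.0691 to 0.520. In 15 of them all 4 pairs of a Wnt3A and a Control array were above it. The highest bins were neighbours, from 40 to 50 Mb (0.520, 38 genes) and from 50 to 60 Mb (0.463, 85 genes), and the next were 180 to 190 Mb (0.383, 75 genes) and 80 to 90 Mb (0.380, 84 genes). The lowest was 20 to 30 Mb (0.0691, 25 genes), where the pairs ran from -0.0408 to 0.339. The bin from 110 to 120 Mb held 7 genes and is too thinly filled to read. Of 206 such bins on the other autosomes, 50.5% were above their overall median, 24.3% had all 4 pairs above it, and 7.77% were above it by more than 0.2, beside 11 of the 19 bins of chromosome 1.

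Along chromosome 5 the higher level was not continuous. Of 15 bins with at least 20 genes, 11 were above the median of the other autosomes and 8 had all 4 pairs above it. From 110 Mb to 150 Mb all 4 bins were higher, by 0.228, 0.238, 0.159 and 0.275, and together they held the most densely filled stretch, with 140 to 182 genes each. Bins at 0 to 10 Mb (0.241), 30 to 40 Mb (0.222) and 40 to 50 Mb (0.367) were higher as well. Bins at 10 to 20 Mb (-0.146), 50 to 60 Mb (-0.145), 60 to 70 Mb (-0.0169) and 70 to 80 Mb (-0.0914) were lower, with 24 to 60 genes each. In each of these 4 the single pairs lay on both sides of 0. Leaving out any 20 Mb stretch kept the shift at 0.222 to 0.253 on chromosome 1 and at 0.128 to 0.163 on chromosome 5.

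**Figure D3:**
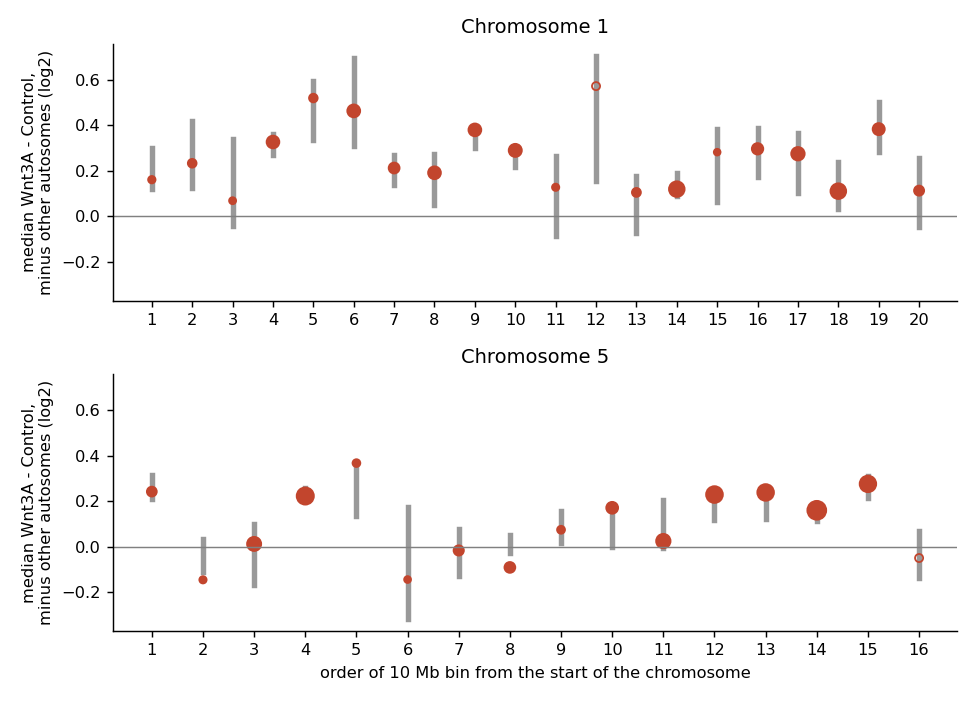
Median log2 difference, Wnt3A minus Control, of the genes in each 10 Mb bin less the median over the other autosomes (vertical axis), for the bins in order from the start of each chromosome (horizontal axis). Filled points are bins of at least 20 genes, with area in proportion to their number, open points are thinner bins, and grey bars span the 4 pairs of a Wnt3A and a Control array; a point is the median of gene means and can lie outside its bar. All 19 filled bins of chromosome 1 and 11 of 15 of chromosome 5 lie above 0.

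Probe brightness and base composition moved with the size of the shift. Genes of all chromosomes were divided into equal tertiles by mean log2 intensity, and each tertile was compared with the same tertile of the other autosomes. The shift of chromosome 1 was 0.155, 0.234 and 0.280 in the dim, middle and bright tertiles, and it was the highest of 19 autosomes in each. The shift of chromosome 5 was 0.0159 in the dim tertile, where it ranked 9 of 19, and 0.180 and 0.229 in the middle and bright tertiles, where it ranked 2. By GC content of the probe, a split chosen after the values were seen, chromosome 1 had 0.331, 0.243 and 0.0831 in the low, middle and high tertiles and ranked 1, 1 and 3. Chromosome 5 had 0.211, 0.126 and 0.118 and ranked 2, 3 and 1. The GC tertiles were unequal in size, because genes tied at the cuts of 0.4 and 0.45. They held 506, 502 and 243 genes on chromosome 1 and 473, 519 and 337 on chromosome 5. The median GC content of the probes was 43.3% on chromosome 1, on chromosome 5 and on the other autosomes alike. Because the chromosomes were chosen by this difference, their ranks are description only. The part of brightness and GC content in the shift was not tested beyond these tertiles.

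**Figure D4:**
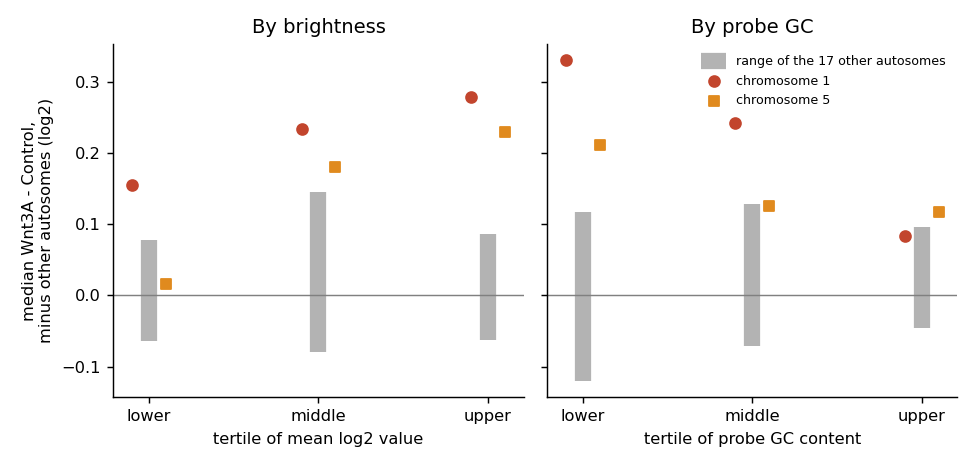
Shift of chromosome 1 (circles) and chromosome 5 (squares), as the median log2 difference less that of the other autosomes (vertical axis), within tertiles of mean log2 intensity (left) and of probe GC content (right). Grey bars span the other 17 autosomes. Chromosome 1 lies above the bar in 5 of the 6 tertiles. Chromosome 5 lies within it in the dim tertile at 0.0159 and in the middle tertile of GC content at 0.126.

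The shift was not present in the scanner files. With the processed scanner signal it was -0.0261 on chromosome 1 and -0.0293 on chromosome 5, within the range of the other autosomes there (-0.0878 to 0.10). Chromosome 1 stood at -0.0190 and 0.00425 in the Control scans and at -0.0594 and 0.0568 in the Wnt3A scans, so the groups overlapped. Chromosome 5 stood at -0.00412 and 0.0461 in the Control scans and at 0.000402 and 0.00638 in the Wnt3A scans, and again the groups overlapped. Different arrays behind the table and the scanner files and a difference in their processing cannot be told apart.

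Single genes were tested with limma over all probes, with Benjamini-Hochberg adjustment and a threshold of 0.05. On chromosome 1, 9 genes rose and 1 fell, and on chromosome 5, 4 rose and 5 fell. This is 0.799% and 0.677% of the genes of each chromosome, beside 0.834% of all genes called. By direction, 0.719% of chromosome 1 genes rose and 0.0799% fell, and 0.301% of chromosome 5 genes rose and 0.376% fell, beside 0.501% and 0.333% of all genes. In 15 of the 19 calls the low group was above 0.1 on neither array, so these genes entered the fit through the group where they are high, and their p-values rest on intensities near the lowest on the array. With genes above 0.1 on all 4 arrays, 1 gene of chromosome 1 rose (0.0886%) and none of chromosome 5 passed in limma. Of all genes, 0.109% rose and 0.084% fell with that filter. Limma's unadjusted p was then under 0.05 in 208 genes of chromosome 1 (18.4%) and 162 of chromosome 5 (13.3%), beside 12.3% of all genes. At an unadjusted p under 0.05 in the full data, 175 genes of chromosome 1 were higher (13.99%) and 67 lower (5.36%), and 110 of chromosome 5 were higher (8.28%) and 77 lower (5.79%), beside 6.28% and 6.72% of all genes. These shares come from the contrast that chose the chromosomes. The smallest change called anywhere on the array was 2.85 on the log2 scale, far above the shift of either chromosome. Of the 19 called genes, 14 have a RefSeq name. No gene of either chromosome passed once any 1 of the 4 arrays was left out, although limma's unadjusted p was under 0.05 in 155 to 201 genes of chromosome 1 and 124 to 172 of chromosome 5 (in 2124 to 2583 of all genes, and in 13% of all genes with all 4 arrays). Of the 55 genes that the naming rule selects, 41 were measured in the scanner files, and 21 of these had the opposite sign there. All 21 are listed at the end, and the paragraphs below repeat the sign for some of them only. Tnn, Dpt, Pid1, Sntg1, Dnah7a, Ibsp and Fras1, which all passed the test, were among those not measured. No probe of theirs was well above background on both scans of either group. A gene whose low group was not above 0.1 on either array has only a bound for its fold change there, computed against 0.1. This holds if the detection limit lies at or below 0.1, which was not tested.

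Genes of the extracellular matrix held the largest rises on chromosome 1. Of 19 measured genes on a list of collagens, laminins, proteoglycans and other matrix genes, 3 rose and none fell. On the whole chromosome 0.719% of genes rose, and 0.501% of all genes did. A difference above 0 was found in 14 of the 19, beside 63.2% of the chromosome. The median was 0.89, beside 0.18 on the chromosome and -0.03 over all genes. This list and those below were written with earlier results of these data known. Tnn, which encodes tenascin-N, a matrix protein of developing bone, read 0.0161 and 0.0153 in Control and 66.9 and 86.2 in Wnt3A (probe at chr1:161922408-161922466). It was at least 757-fold higher in Wnt3A (log2 difference 12.24 ± 0.32 SE, n = 2 per group, limma adjusted p = 0.0182). Dpt, encoding the collagen-binding protein dermatopontin, read 0.0478 and 0.138 in Control and 25.2 and 29.4 in Wnt3A (chr1:166660247-166660306). Its log2 difference was 8.39 ± 0.57 (SE, limma adjusted p = 0.0257). Fmod, encoding fibromodulin, a small leucine-rich proteoglycan that shapes collagen fibrils, read 0.415 and 0.961 in Control and 107 and 103 in Wnt3A (chr1:135863832-135863891). The log2 difference was 7.38 ± 0.48 (SE, limma adjusted p = 0.0244), and Fmod was above 0.1 on all 4 arrays. In each of the 3 genes the groups lay far apart, but in the scanner files Fmod had the opposite sign (-1.16). Tnn and Dpt had no probe well above background on both scans of either group, so the scanner files give no value for them.

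Other matrix genes of chromosome 1 had large but smaller differences, which did not pass the test at the probe that stands for the gene. Col3a1, a fibrillar collagen of soft connective tissue, read 7.86 and 19.6 in Control and 236 and 239 in Wnt3A. Its log2 difference was 4.25 (limma adjusted p = 0.0628). Its other probe read 2.14 and 5.09 against 134 and 133 and did pass (5.33, limma adjusted p = 0.0388). In the scanner files, where either probe may stand for the gene, Col3a1 had the opposite sign (-0.55). Col5a2, its neighbour among the fibrillar collagens and named after its value was seen, had a log2 difference of 3.79 (limma adjusted p = 0.093). Hmcn1, encoding the basement membrane protein hemicentin, read 0.0143 and 0.0137 in Control and 1.07 and 0.102 in Wnt3A, so its 2 Wnt3A arrays lay far apart and 1 of them barely exceeded 0.1. Fn1 and Col6a3, chosen after their values were seen as genes of the list that stood near 0, had differences of 0.06 and -0.24. The list was therefore not uniform. Of the collagens on other chromosomes that served as stromal markers, Col1a1 read 158 and 256 in Control and 671 and 736 in Wnt3A, and Col1a2 read 130 and 200 against 371 and 445. Vim and Vcam1, of the same marker list, were lower on both Wnt3A arrays. The part of a change in the make-up of the cells was not tested, and in these bulk samples more cells of a type and more RNA per cell cannot be told apart.

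The other named rises of chromosome 1 were of mixed function. Pid1, an adaptor that binds an LDL receptor family member and dampens insulin signalling, read 0.0163 and 0.0156 in Control and 0.968 and 0.791 in Wnt3A (chr1:83915861-83915920). This was at least 8.72-fold higher (limma adjusted p = 0.0227). Sertad4 read 0.0790 and 0.0725 in Control and 1.75 and 2.52 in Wnt3A (chr1:194545857-194545916), at least 21.0-fold higher (limma adjusted p = 0.0272). In both genes the Control arrays were below 0.1 and close to each other.

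The remaining 3 lay nearer to the threshold of intensity. Mettl18, encoding a histidine methyltransferase, read 0.0168 and 0.0151 in Control and 0.317 and 0.538 in Wnt3A (at least 4.11-fold, limma adjusted p = 0.0350). Sntg1, encoding a syntrophin, read 0.0149 and 0.0188 against 0.294 and 0.239 (at least 2.64-fold, limma adjusted p = 0.0320). Dnah7a, encoding a dynein heavy chain of cilia, read 0.0156 and 0.0180 against 0.147 and 0.171 (at least 1.58-fold, limma adjusted p = 0.0396). The Wnt3A values of Dnah7a were themselves little above 0.1. Mettl18 had the opposite sign in the scanner files (-1.62). The ninth rise and the only fall on chromosome 1 were probes without a RefSeq name.

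**Figure D5:**
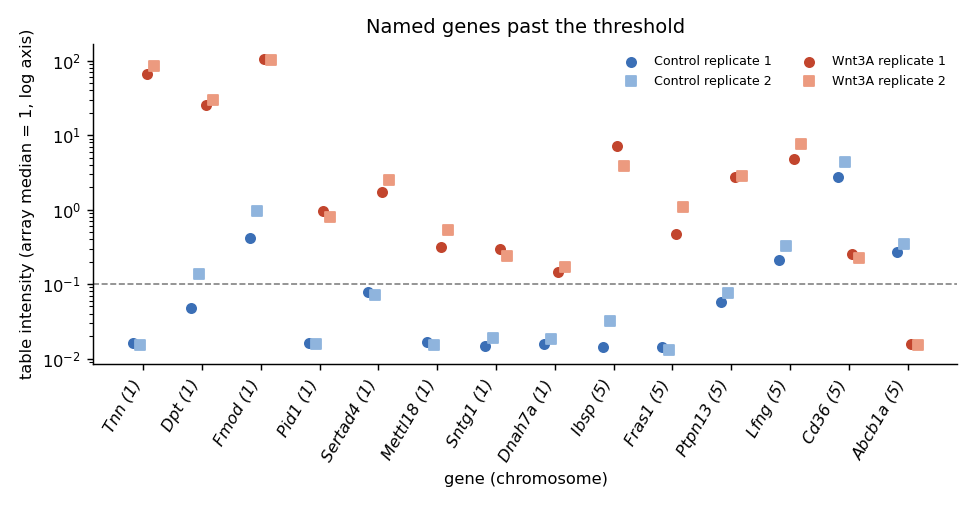
Intensity in the deposited table (vertical log axis, array median near 1) of the 14 named genes that passed the test, with the chromosome in brackets (horizontal axis); each point is 1 array and the dashed line is the filter at 0.1. The 8 genes of chromosome 1 and the first 4 of chromosome 5 are higher on both Wnt3A arrays, Cd36 and Abcb1a are lower, and heights of different genes cannot be compared because each probe has its own response.

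Of 21 developmental signals and receptors measured on chromosome 1, 15 had a difference above 0, with a median of 0.30 beside 0.18 and 63.2% of genes above 0 over the whole chromosome. Limma called none (5 were higher and none lower at an unadjusted p under 0.05). Igfbp5, an IGF-binding protein of bone and stroma, read 0.212 and 0.0764 in Control and 2.72 and 2.10 in Wnt3A (limma adjusted p = 0.0937). Il1rl1, the IL-33 receptor, read 0.103 and 0.121 in Control and 2.97 and 1.26 in Wnt3A (limma adjusted p = 0.0694), and its other, dimmer probe passed with a log2 difference of 4.96 (limma adjusted p = 0.0272). Il1r1, the receptor of interleukin-1 in the same cluster, was lower on both Wnt3A arrays, at 3.41 and 12.6 in Control and 2.74 and 0.979 in Wnt3A (limma adjusted p = 0.412). These 2 receptor genes thus had differences of opposite sign, but that of Il1r1 was not firm. It was -1.12 without Control replicate 2 and -1.25 without Wnt3A replicate 2. In the scanner files Il1r1 was higher in Wnt3A (2.06).

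Of 18 measured transcription factors and cofactors of chromosome 1, 10 had a difference above 0, the median was 0.25, and limma called none (4 were higher and none lower at an unadjusted p under 0.05). Eya1, a coactivator in organ and skeletal development, read 1.55 and 0.976 in Control and 22.2 and 6.98 in Wnt3A (log2 difference 3.34 ± 0.69 SE, limma adjusted p = 0.164). Both of its probes were higher on both Wnt3A arrays, but in the scanner files Eya1 had the opposite sign. Atf3, a stress-response factor, read 1.37 and 0.862 in Control and 20.5 and 0.948 in Wnt3A (limma adjusted p = 0.659). Its difference rests on Wnt3A replicate 1: without that array it was -0.21.

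Genes of signalling restraint, interferon response and lipid metabolism on chromosome 1 had medians below that of the chromosome (0.18). Of 8 measured RGS genes, whose products shorten G protein signals, 6 were lower, with a median of -0.20, and limma called none (1 was lower and none higher at an unadjusted p under 0.05). Rgs2 read 10.1 and 12.7 in Control and 3.19 and 1.97 in Wnt3A (log2 difference -2.18 ± 0.39 SE, limma adjusted p = 0.127). Rgs4 read 3.73 and 2.84 against 1.90 and 0.588 (limma adjusted p = 0.405). In both genes the groups did not overlap, and both stood out among RGS genes whose other differences were between -0.43 and 0.75. The scanner files gave Rgs2 the opposite sign (1.57).

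The interferon-inducible p200 genes encode DNA sensors and related nuclear proteins that resemble each other in sequence, so a probe may read more than 1 of them. Of 6 measured, 4 were lower on both Wnt3A arrays than on both Control arrays. That order held in 15.7% of chromosome 1 genes and in 24.4% of all genes. The median over the 6 was -0.76, and limma called none (3 were lower and none higher at an unadjusted p under 0.05). Ifi204 read 18.1 and 14.98 in Control and 7.79 and 6.67 in Wnt3A (limma adjusted p = 0.2497). Ifi207 read 3.70 and 4.86 against 2.31 and 1.11 (limma adjusted p = 0.325).

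Of 13 measured genes of lipid and steroid metabolism on chromosome 1, 7 were lower and 6 higher, with a median of -0.14, and limma called none (2 were higher and 3 lower at an unadjusted p under 0.05). Hsd11b1, which regenerates active glucocorticoid in fat and bone, read 6.08 and 6.01 in Control and 1.85 and 1.21 in Wnt3A (log2 difference -2.02 ± 0.36 SE, limma adjusted p = 0.130). Idh1, the cytosolic isocitrate dehydrogenase that supplies NADPH, read 20.6 and 20.9 against 6.33 and 4.52 (-1.96 ± 0.34 SE, limma adjusted p = 0.122). In both genes the Control arrays lay close together and the groups did not overlap. The scanner files gave Hsd11b1 the opposite sign (1.14).

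The other named genes of chromosome 1 with lower values in Wnt3A did not pass the test either. Mgst3, a microsomal glutathione transferase, read 99.4 and 126 in Control and 14.8 and 10.3 in Wnt3A (log2 difference -3.18 ± 0.35 SE, limma adjusted p = 0.0551), and its 3 probes shared that direction. Gsta3, another glutathione transferase, read 16.5 and 4.55 against 0.815 and 2.04 (limma adjusted p = 0.292). Rgl1, a regulator of Ral GTPases, read 33.9 and 47.9 against 10.3 and 8.30 (limma adjusted p = 0.106). Cd55, which protects cells from complement, read 0.931 and 0.296 in Control and was below 0.1 on both Wnt3A arrays (log2 difference -5.35, limma adjusted p = 0.0716). With no filter or a filter at 0.05 another of its probes stood for it, and the difference was -0.0875. Csprs, 3110045C21Rik and Aqp12 had log2 differences of -2.32, -2.86 and -2.04, with limma adjusted p of 0.0822, 0.232 and 0.227. The other probe of Csprs read -0.87, and it stood for the gene, at -0.79 and -0.94, when either Control array was left out. The groups did not overlap in any of these 7 genes, which the rule for naming them required.

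On chromosome 5 the largest named rise was in the SIBLING cluster, and genes of that cluster differed in sign. Ibsp, encoding integrin-binding sialoprotein of mineralising bone, read 0.0141 and 0.0315 in Control and 7.07 and 3.88 in Wnt3A (chr5:104551214-104551273). This was at least 52.2-fold higher (log2 difference 7.95 ± 0.55 SE, n = 2 per group, limma adjusted p = 0.0260). Spp1, encoding osteopontin, lies in the same cluster and read 442 and 511 in Control and 58.1 and 37.0 in Wnt3A (chr5:104681071-104681130). Its log2 difference was -3.36 ± 0.37 (SE, limma adjusted p = 0.0549), so the groups did not overlap but the test was missed. In the scanner files Spp1 had the opposite sign (0.44). Of 6 measured genes on the list of SIBLING genes and their neighbours, 1 rose, the other 5 had differences below 0, and the median was -0.52. On the whole chromosome 0.301% of genes rose, 56.0% had a difference above 0 and the median was 0.10, and 0.501% of all genes rose.

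Of 13 measured matrix, elastic fibre, protease and neighbouring genes of chromosome 5, 2 rose, none fell, and 9 had a difference above 0, with a median of 0.18. The whole chromosome had 0.301% of genes rising, 56.0% with a difference above 0 and a median of 0.10, and 0.501% of all genes rose. Fras1, encoding a basement membrane protein that holds epithelium to its underlying tissue, read 0.0142 and 0.0131 in Control and 0.467 and 1.08 in Wnt3A (chr5:97024501-97024560). This was at least 7.09-fold higher (limma adjusted p = 0.0382). Lfng, lunatic fringe, adds sugars to Notch receptors and alters their response to ligands. It read 0.210 and 0.326 in Control and 4.82 and 7.65 in Wnt3A (chr5:140867744-140867803). The log2 difference was 4.53 ± 0.40 (SE, limma adjusted p = 0.0382). Its other probe differed by 4.22 in the same direction and did not pass (limma adjusted p = 0.116). Lfng is a Notch pathway enzyme and no matrix protein, although it stands on this list.

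Ptpn13, encoding a large tyrosine phosphatase, read 0.0569 and 0.0750 in Control and 2.78 and 2.85 in Wnt3A (chr5:103790581-103791074), at least 28.1-fold higher (limma adjusted p = 0.0229). Its other probe did not show this: it read 0.265 and 0.159 in Control and 0.147 and 0.175 in Wnt3A (log2 difference -0.36, limma adjusted p = 0.778). The probes of Ptpn13 therefore disagree. In the scanner files, where either probe may stand for the gene, Ptpn13 was lower in Wnt3A (-1.01).

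Transporters and lipid genes held both named falls of chromosome 5. Of 19 measured, 2 fell and none rose, 10 had a difference above 0 and 9 below, and the median was 0.02. Falls were called in 0.376% of the genes of the chromosome and in 0.333% of all genes. Abcb1a, encoding P-glycoprotein, which exports drugs from cells, read 0.266 and 0.343 in Control and 0.0155 and 0.0153 in Wnt3A (chr5:8753985-8754044). This was at least 3.03-fold lower (limma adjusted p = 0.0267). Abcb1b, the second gene for P-glycoprotein in mice and named after its value was seen, had a log2 difference of 0.69 (limma adjusted p = 0.56).

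Cd36, the fatty acid translocase and a marker of fat cells, read 2.79 and 4.34 in Control and 0.257 and 0.225 in Wnt3A (chr5:17295116-17297548). The log2 difference was -3.86 ± 0.35 (SE, limma adjusted p = 0.0388). Its other probe differed by -0.60 (limma adjusted p = 0.594), and the mean of both probes did not pass (-2.23, limma adjusted p = 0.0858). Without Control replicate 1 the other probe stood for Cd36, at -0.93 (limma adjusted p = 0.488). In the scanner files, where either probe may stand for the gene, Cd36 had the opposite sign (0.36). The remaining 3 falls of chromosome 5 were probes without a RefSeq name.

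Chemokine and growth factor genes of chromosome 5 gave no calls. Of 3 CXC chemokines measured out of 11 on the array, 2 were lower, with a median of -1.92, and limma called none (1 was higher and 1 lower at an unadjusted p under 0.05). Cxcl5, a neutrophil attractant, read 1.28 and 1.66 in Control and 0.298 and 0.0214 in Wnt3A (limma adjusted p = 0.303). Cxcl1 read 73.5 and 55.2 against 42.7 and 6.70 (limma adjusted p = 0.497). Their Wnt3A arrays lay far apart, with replicate 2 the lower in both.

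Of 3 EGF family ligands measured out of 4, all had a difference below 0, with a median of -1.58, and limma called none (1 was lower at an unadjusted p under 0.05). Btc, betacellulin, read 0.607 and 0.521 in Control and 0.0539 and 0.0160 in Wnt3A (limma adjusted p = 0.106). The scanner files gave Btc the opposite sign. Ereg, epiregulin, read 29.9 and 10.1 against 9.72 and 3.49, and after scaling of the arrays the groups overlapped (limma adjusted p = 0.503). Its other probe read 1.30 and 1.39 against 0.242 and 0.170, with no overlap (log2 difference -2.73, limma adjusted p = 0.0689).

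Of 18 growth factors, guidance cues and receptors of chromosome 5, 10 were higher and 8 lower, with a median of 0.04, and limma called none (4 were higher and 4 lower at an unadjusted p under 0.05). Sema3a, a guidance cue that is also made by bone cells, read 0.0164 and 0.0520 in Control and 0.686 and 0.679 in Wnt3A (limma adjusted p = 0.0761). Fgfrl1, an FGF receptor-like protein without a kinase domain, read 23.5 and 49.9 against 2.30 and 0.838 (log2 difference -4.63 ± 0.67 SE, limma adjusted p = 0.0895). The 2 genes thus lay at opposite ends of the list, and in neither did the groups overlap.

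Of the transcription factors of chromosome 5, 6 of 17 had a difference above 0, the median was -0.19, and limma called none (1 was higher and none lower at an unadjusted p under 0.05). Cux2 read 0.145 and 0.0281 against 0.190 and 0.135, and its groups overlapped (limma adjusted p = 0.613).

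Of 12 measured 2'-5' oligoadenylate synthetase and guanylate-binding genes, which act in the antiviral response to interferon, 9 were lower, with a median of -0.64, and limma called none (3 were lower and none higher at an unadjusted p under 0.05). Oas1b read 1.41 and 1.18 in Control and 0.353 and 0.137 in Wnt3A (log2 difference -2.56 ± 0.57 SE, limma adjusted p = 0.182). Oas1h read 0.343 and 1.19 against 0.137 and 0.181 (limma adjusted p = 0.309). Gbp8 did not pass at the probe that stands for it (0.71, limma adjusted p = 0.482), but its other probe did. The genes of this list are near copies of each other, so a probe may read more than 1. Of the 12, 8 lie between 120 and 130 Mb, a bin whose overall shift was 0.238 in the other direction.

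The other named genes of chromosome 5 gave values only. Phtf2, Pilra, Dcun1d4, Rad9b and Cpeb2 were higher on both Wnt3A arrays by 3.89 to 4.64 on the log2 scale, with limma adjusted p of 0.131 to 0.414. Without Control replicate 2, Phtf2 was at 2.59 and Rad9b at 2.11, and the other probes of Phtf2 and Dcun1d4 read 1.02 and 1.66. Pilra, an inhibitory receptor of myeloid cells, read 0.0338 and 0.0437 in Control and 0.124 and 5.29 in Wnt3A, so 1 array carried its difference. Slc4a4, Speer4b, Zfp605, Medag and Slc10a6 were lower on both Wnt3A arrays, with limma adjusted p of 0.0561 to 0.433. Medag, which is named for its part in fat cell formation, read 4.72 and 7.20 against 0.825 and 0.296 (limma adjusted p = 0.121). Slc4a4, a sodium bicarbonate cotransporter, read 0.146 and 0.306 in Control and was below 0.1 on both Wnt3A arrays (limma adjusted p = 0.0561).

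Over the 14 lists, the median difference was above that of all genes (-0.03) in 6 lists and below it in 8. It was above it in the matrix, developmental and transcription factor lists of chromosome 1 and in the growth factor, matrix and transporter lists of chromosome 5. The lists cover 176 of the 2580 members, and the lists of each chromosome did not all share its direction.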

How the data were processed

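The deposited table gives linear intensity values of 43379 spots that are not controls, which the authors obtained with Agilent Feature Extraction per the submitters' processing notes; how its columns were scaled to a median near 1 is not given in the sources used here. The scanner files give intensity before and after background subtraction by Feature Extraction 10.5.1.1, per the file headers, with other values deposited as flags for signal well above background. Table rows were joined to spots by feature number. The table was the main source, a choice made with earlier results of these data known, as were the members and the gene lists. Spots of a probe were averaged (41174 probes), 24496 probes were named through RefSeq by accession and 8620 by symbol, and 8058 have only the file's name. Probe positions are those of the array annotation on mm8, and since no genome of that build was used, exons are not given.

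Log2 values, less the 75th percentile of each array, of 32214 probes above 0.1 on both arrays of 1 group or of both entered limma 3.58.1 under R 4.3.3 (functions lmFit and eBayes, two-sided, 2 residual and 2.36 prior degrees of freedom). Benjamini-Hochberg adjustment ran over all these probes, with a threshold of 0.05. The kept probe of highest mean stood for a gene. Summaries used Python 3.11.15 with pandas 2.3.3. The fit was tested on simulated data. The labels call the samples replicates and do not say that they came from separate cultures, so p-values speak for the spread of these samples only, which may be technical. Genes were named by rule: the 10 largest rises and 10 largest falls of each chromosome past the threshold, filled up with the largest differences whose groups did not overlap, and, of each list, the members past the threshold and the 2 largest differences. Of the genes so selected, 1 is not reported here. Other scalings, filters, probe summaries, variance models and sources were tried, and each array was left out in turn.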

Additional observations from a re-analysis of the deposited data

How the results depend on the processing

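The shift of both chromosomes kept its direction under each of the alternatives on table values and turned in the scanner files. On chromosome 1 it was 0.205 with no filter, 0.245 with a filter at 0.2, 0.224 with genes above 0.1 on all 4 arrays, 0.269 with the mean of probes, 0.297 with each probe on its own and 0.365 with means in place of medians. It was 0.224 against all other chromosomes. Without 40 to 60 Mb it was 0.222, without 60 to 80 Mb 0.243, without 120 to 140 Mb 0.253 and without 160 to 180 Mb 0.243. On chromosome 5 it was 0.114 with no filter, 0.16 at 0.2, 0.164 with the mean of probes, 0.214 with each probe, 0.158 with means and 0.131 against all other chromosomes. Without 60 to 80 Mb it was 0.163, without 120 to 140 Mb 0.135 and without 140 to 160 Mb 0.128. In tertiles of brightness it was 0.155, 0.234 and 0.28 on chromosome 1 and 0.0159, 0.18 and 0.229 on chromosome 5. In tertiles of probe GC, chosen after seeing the data, it was 0.331, 0.243 and 0.0831 on chromosome 1 and 0.211, 0.126 and 0.118 on chromosome 5. With only RefSeq-named genes, also chosen after seeing the data, it was 0.254 and 0.132. Leaving out 1 array gave 0.233 to 0.272 on chromosome 1 and 0.135 to 0.152 on chromosome 5. With the processed scanner signal it was -0.0261 and -0.0293, and with normexp and quantile normalization of the scanner files -0.0249 and -0.0108; the cause was not tested.

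The number of genes called by limma was 10 on chromosome 1, 9 on chromosome 5 and 183 overall. It was 2, 2 and 35 with no filter and 1, 0 and 39 with genes above 0.1 on all 4 arrays. With the mean of probes it was 21, 15 and 291, and with trend and robust settings 15, 14 and 268. Counted by probe it was 20, 12 and 288. In the scanner files it was 1, 0 and 2 with the processed signal and 0, 0 and 0 with normexp, where limma's unadjusted p was under 0.05 in 12, 17 and 319 genes. Leaving out any 1 array gave 0 to 0 calls for each, a fit with 1 sample in an arm that assumes it varies like the other group. Same-numbered samples did not deviate together (r = 0.0154 over probes). Whether the numbers pair the samples cannot be told from this, and the main fit treated them as unpaired. With the replicate block the counts were 0, 0 and 0, while 220, 187 and 2707 genes had an unadjusted p under 0.05. A slide or scan block could not be fitted because all 4 arrays share 1 slide and 1 scan.

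Of 55 genes that the naming rule selects, 41 were measured in the scanner files, and 21 had the opposite sign with the processed signal and 19 with normexp. With the processed signal the log2 differences were Fmod -1.16, Mettl18 -1.62, Col3a1 -0.55, Cd55 0.31, Rgs2 1.57, Aqp12 1.4996, Hsd11b1 1.14, Il1r1 2.06, Ptpn13 -1.01, Phtf2 -0.29, Rad9b -1.49, Cpeb2 -0.58, Cd36 0.36, Btc 2.52, Speer4b 1.30, Medag 0.29, Igfbp5 -0.25, Eya1 -1.74, Atf3 -1.31, Spp1 0.44 and Cux2 -0.15. With normexp they were Fmod -0.83, Mettl18 -0.70, Col3a1 -0.30, Cd55 0.22, Rgs2 1.06, Aqp12 0.68, Hsd11b1 0.91, Il1r1 1.46, Ptpn13 -0.47, Rad9b -1.03, Cd36 0.25, Btc 0.94, Slc4a4 0.34, Speer4b 0.93, Medag 0.32, Eya1 -1.27, Atf3 -1.02, Idh1 0.0758 and Spp1 0.18. On table values, Ptpn13 turned to -0.36 with genes above 0.1 on all 4 arrays, where its other probe stands for it, and Atf3 to -0.21 without Wnt3A replicate 1 (its other values without 1 array reached 4.24). Beside these 2, the values of other named genes, 19 in all with these, moved by over 1.5 times under at least 1 alternative on table values. The table has no flags, so saturation and signal over background could not be read from it, and differences near the intensity of 0.1 are the least certain.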
